A study of Homo sapiens with 3 samples.

Results

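Peaks of Myc-tagged Idax in the last 2 Mb of human chromosomes were examined. They were taken by position alone: every peak of the wild-type Idax list on the autosomes other than chromosome 19 whose middle lay less than 2 Mb from the hg19 end of its chromosome. This gave 1131 of the 17089 wild-type peaks (6.62%). The 21 autosomes held 15269 peaks, of which the terminal peaks made up 7.41%, while the terminal zones made up 2.62% of the length of those chromosomes. The comparison group was the 2111 peaks that lay 2 to 10 Mb from the same ends. Of the remaining peaks of these autosomes, 12025 lay over 10 Mb from either end.

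The data came from chromatin immunoprecipitation and sequencing (ChIP-seq) of HEK293T, an established cell line from human embryonic kidney in which the large T antigen of SV40 is expressed. Stable lines carried wild-type Myc-Idax, a DNA-binding mutant (Myc-IdaxDBM) or an empty vector, and an anti-c-Myc agarose gel was used for all 3. Peaks of each Idax line were called over the empty-vector line. The tagged protein was added to cells that kept their own genes. The design text names 2 replicates per condition, but 1 list per construct was analysed, so no value below has replicate error and the read depth behind a peak is unknown. The score of a peak is the peak caller's own value as the authors deposited it, and it was compared within the wild-type list alone.

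Idax, also named CXXC4, has a CXXC zinc finger, a fold that binds DNA holding CpG dinucleotides without methylation. Such CpG lies mostly in CpG islands, the CpG-rich stretches at many gene starts. A human chromosome ends in telomere repeats, followed inward by subtelomeric sequence that is partly shared between chromosomes, and then by single-copy sequence. The outermost bands of many arms are rich in G and C, genes and CpG islands, while those of other arms are poor in genes. No hg19 sequence or gene annotation was used here, so no peak was assigned to a gene and no peak sequence is shown.

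Of 42 ends, the short arms of chromosomes 13, 14, 15, 21 and 22 have no assembled end in hg19. They held 0 terminal peaks and 2 peaks between 2 and 10 Mb, and were left out of the comparisons. The other 37 ends, 16 on short arms (p) and 21 on long arms (q), were compared with their own flanks. Unassembled stretches inside the remaining zones were not masked.

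Idax peaks were denser at the ends than further in. The terminal zones held 15.3 peaks per Mb (exact Poisson 95% interval 14.4 to 16.2) and the flanks 7.13 per Mb (6.83 to 7.44), which is 2.14 times as many per Mb when the ends are pooled. End by end, the terminal zone was the denser in 32 of 37, and the median end had 13.5 peaks per Mb against 5.25 in the median flank. The median of the 37 paired ratios was 1.88 (exact 95% interval of the median 1.56 to 2.74). This difference passed the exact two-sided sign test over ends (p = 7.43e-06, and adjusted p = 2.97e-05 over the 4 measures tested with the Benjamini-Hochberg method). The test treats ends, not peaks, as units, and it describes ends of this 1 list and not replicate experiments. On the 16 short arms taken alone the zone was denser in 13, with a median ratio of 1.71. The difference there did not pass the exact sign test after adjustment (p = 0.0213, adjusted p = 0.0851). On the 21 long arms the zone was denser in 19, with a median ratio of 1.89 (exact sign test, adjusted p = 0.000885). Whether short and long arms differ was not tested. With both ends of a chromosome put together, a unit chosen after seeing the data, the terminal zone was denser on 21 of 21 chromosomes (exact sign test, adjusted p = 3.81e-06), from 1.11 times on chromosome 14 to 8.53 times on chromosome 8.

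**Figure D1:**
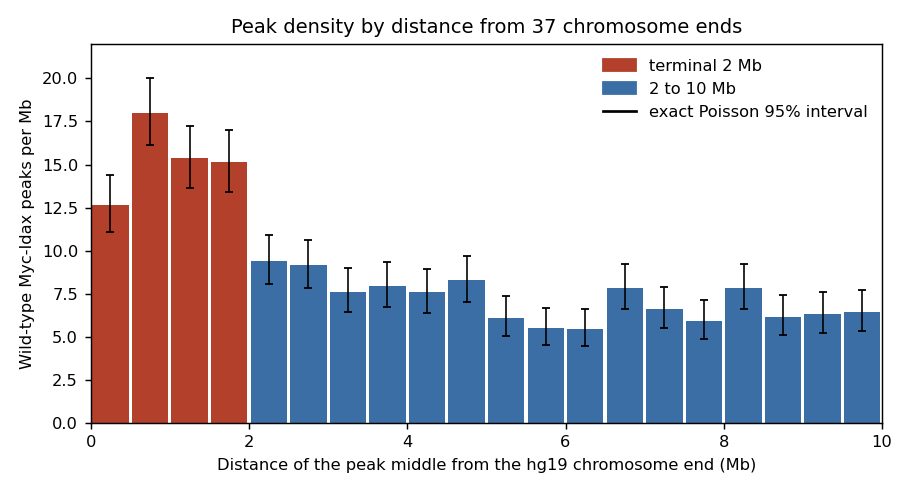
Wild-type Myc-Idax peaks per Mb (vertical axis) in steps of 0.5 Mb from the hg19 chromosome end (horizontal axis), pooled over 37 ends, with exact Poisson 95% intervals. The 4 terminal steps sit between 12.6 and 18 peaks per Mb, and every later step is at 9.41 or below.

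The density counted along hg19 was not highest at the very tip. Unassembled sequence was not masked, and how well reads align near the ends was not examined. Within the first 100 kb there were 20 peaks, on 12 of the 37 ends, or 5.41 per Mb (3.3 to 8.35). The next 100 kb held 36 peaks (9.73 per Mb), and the step from 300 to 400 kb held 72 (19.5 per Mb, 15.2 to 24.5). In steps of 0.5 Mb, the density was 12.6 per Mb up to 0.5 Mb, 18 per Mb from 0.5 to 1 Mb, 15.4 from 1 to 1.5 Mb and 15.1 from 1.5 to 2 Mb. The following step, from 2 to 2.5 Mb, had 9.41 per Mb (8.06 to 10.9), an interval that did not overlap that of the step before it (13.4 to 17). These intervals cover counting error only. They take peaks pooled over ends as independent, though neighbouring peaks cluster and the ends differed widely. Beyond 5 Mb the steps ranged from 5.46 to 7.84 per Mb. The largest drop between neighbouring steps thus lay at 2 Mb, the limit used to choose the peaks, which was proposed with results of these data known.

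The outermost peak lay at a median of 182 kb from the hg19 end (quartiles 86 and 245 kb), and 32 of 37 ends had one within 300 kb. Any unassembled sequence is part of these distances. The shortest distance was 11.8 kb, at 18p. The longest were 714 kb at 1p, 804 kb at 11q, 1323 kb at 14q and 2141 kb at 3p.

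The ends differed widely from one another. The terminal density ran from 0 peaks per Mb at 3p to 38.5 at 16p, and the flank density from 0.88 to 18.8. The 5 densest ends, 16p, 8q, 17q, 9q and 1p, held 342 of the 1131 terminal peaks (30.2%). At 1p, 56 peaks gave 28 per Mb, the same number as at 7p, which ranked equal with it. Across the 37 ends, terminal density rose with flank density (Spearman rho 0.65, Pearson r 0.67). Both counts come from 1 list, and this is a description without a test. The terminal zone was the densest of all 2 Mb windows on its chromosome at 8 ends, and among the 3 densest at 15.

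**Figure D2:**
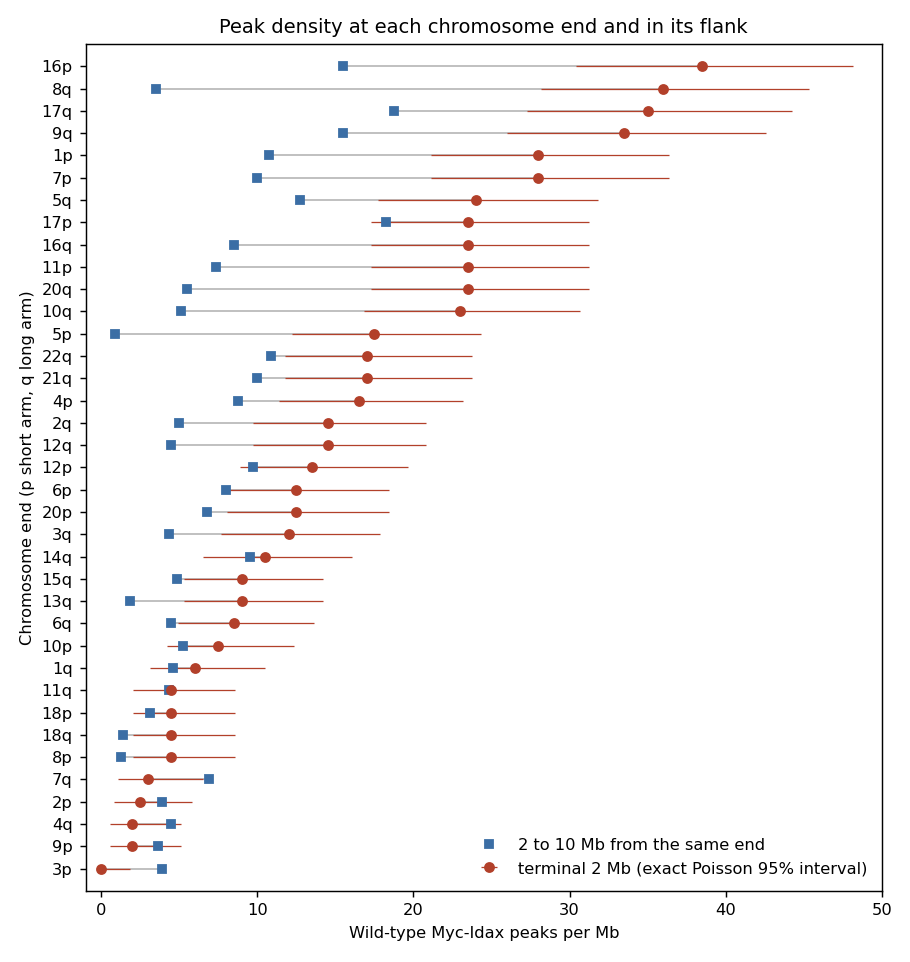
Peaks per Mb (horizontal axis) at each of 37 chromosome ends, sorted by terminal density: circles, the terminal 2 Mb with exact Poisson 95% intervals. Squares mark the flank from 2 to 10 Mb, and 32 of the 37 circles lie to the right of their square.

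The end of the short arm of chromosome 16 had the highest count of peaks per Mb, though not the largest length under peaks. In the gene order of RefSeq (GRCh38.p14), this arm begins with genes such as POLR3K, a subunit of RNA polymerase III, and MPG, a DNA repair glycosylase, followed by the alpha-globin genes HBZ, HBM, HBA2, HBA1 and HBQ1. The terminal zone held 77 peaks, 38.5 per Mb (30.4 to 48.1), against 124 peaks or 15.5 per Mb in its flank, a ratio of 2.48 (exact 95% interval 1.84 to 3.33). The outermost peak was at 72600 to 73173 with a score of 86.34, and the strongest was close behind it, at 102739 to 104449, with a score of 1282.66. Scores at 16p ranged from 50.4 to 1283, with a median of 169 against 246 in the flank. The peaks nearest to the 2 Mb limit were at 1992448 to 1993887 inside it (score 284.66) and at 2008935 to 2010085 outside it (score 383.98).

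At 8q the change along the arm was much steeper. Its outermost genes in the RefSeq order include several of the zinc finger family, among them ZNF16, ZNF250 and ZNF7, and RPL8, which encodes a ribosomal protein. The terminal zone held 72 peaks (36 per Mb, 28.2 to 45.3) and the flank 28 (3.5 per Mb), a ratio of 10.3 (6.56 to 16.5). The outermost peak lay at 146277712 to 146278419 (score 306.68) and the strongest at 144910612 to 144912287 (score 1213.33). Here the terminal peaks also had the higher median score, 274 against 145, and the larger median width, 1241 against 1015 bp. The limit of the rule fell between neighbouring peaks at 144365725 to 144366370 (score 75.41) and 144363483 to 144364229 (score 129.18).

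The end of 17q held 70 peaks (35 per Mb, 27.3 to 44.2) against 18.8 per Mb in its flank, the densest flank of all 37. TBCD, a factor in tubulin folding, and FN3K, a kinase that acts on glycated proteins, are among the outermost genes of this arm in the RefSeq order. It held the strongest terminal peak, at 79315563 to 79320845, which scored 2552.23, was 5283 bp wide and ranked number 2 in the wild-type list. The outermost peak was at 81060000 to 81061186 (score 118.95). Across the 2 Mb limit, the neighbouring peaks were at 79196102 to 79197763 (score 302.41) and 79139319 to 79140059 (score 73.08).

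The 9q end held 67 peaks (33.5 per Mb, 26 to 42.5), 2.16 times the density of its flank (1.58 to 2.93). Its outermost genes in the RefSeq order are CACNA1B, which encodes a neuronal calcium channel subunit, and EHMT1, a histone H3 lysine methyltransferase. The outermost peak was at 141044352 to 141045140 (score 90.1). The strongest was at 140134542 to 140136012 (score 2149.59, 1471 bp), number 6 in the list. The limit fell between peaks at 139237046 to 139237688 (score 57.76) and 139159056 to 139159622 (score 50.35).

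At 1p the first 714 kb, in which unassembled sequence was not masked, held no peak. In the rest of the zone 56 peaks followed (28 per Mb of the zone, 21.2 to 36.4), 2.6 times the density of the flank (1.83 to 3.69). The outermost was at 713833 to 714764 (score 458.94) and the strongest at 933399 to 937710 (score 1572.59). Those beside the limit were at 1980663 to 1982852 (score 482.79) and 2064160 to 2065498 (score 366.66).

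The steepest contrast was at 5p, an arm whose end carries TERT, the gene of the telomerase catalytic subunit. The terminal zone held 35 peaks (17.5 per Mb, 12.2 to 24.3) and the 8 Mb of flank held 7 (0.88 per Mb), a ratio of 20 (8.75 to 53.4). This end was singled out after its value was seen. The first flank peak was at 2038422 to 2039039 (score 83.8), only just past the limit, and the next was at 5421811 to 5423280 (score 416.21). The 7 flank peaks had a median score of 416, while the 35 terminal peaks had a median of 145 and a maximum of 441. So the densely occupied tip of 5p held weaker peaks than the few in its flank, although 7 flank peaks give an imprecise median.

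At 5 ends the terminal zone was the sparser, and these were also the 5 ends of lowest terminal density. The end of 3p had 0 peaks (upper limit 1.84 per Mb) against 31 in its flank (3.88 per Mb), and the first peak of chromosome 3 was at 2139944 to 2141239 (score 162.63). At 4q there were 4 peaks (2 per Mb) against 4.5 per Mb, at 9p 4 peaks (2 per Mb) against 3.62 per Mb, at 2p 5 peaks (2.5 per Mb) against 3.88 per Mb, and at 7q 6 peaks (3 per Mb) against 6.88 per Mb. Of these, only 3p had an exact 95% interval of the ratio below 1 (0 to 0.51). The interval lay above 1 at 22 ends and spanned 1 at the other 14. It covers counting error and takes peaks as independent, though neighbouring peaks cluster.

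The 4q end is known for a macrosatellite repeat array linked to facioscapulohumeral muscular dystrophy. Its 4 peaks lay at 190123262 to 190123865 (score 85.85), 190861293 to 190862485 (score 223.28), 190958779 to 190959746 (score 108.57) and 190969757 to 190972075 (score 123.74). All 4 scores were under 223.42, the list median for wild-type Idax, although the highest almost equalled it. The median score of all terminal peaks, 183, was under it as well.

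**Figure D3:**
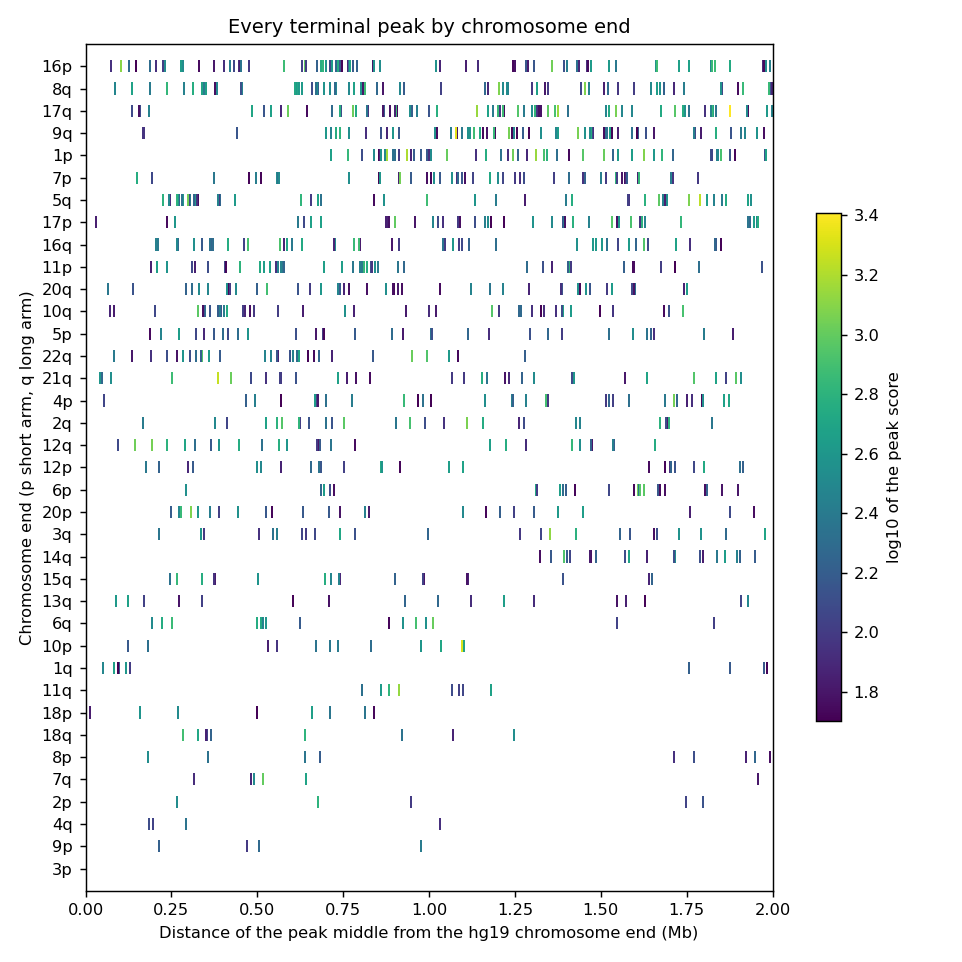
Every terminal peak as a tick at its distance from the hg19 end (horizontal axis, Mb), 1 row per chromosome end sorted by terminal density, coloured by the log10 of its score. In the rows of 16p and 8q the longest stretches without a peak are 162 and 154 kb, 1q has ticks at both margins of the zone with 1624 kb between them, and 3p is empty.

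The 2 ends of a chromosome often differed. Chromosome 7 had 28 peaks per Mb at 7p and 3 at 7q, chromosome 8 had 4.5 at 8p and 36 at 8q, and chromosome 9 had 2 at 9p and 33.5 at 9q. Chromosome 1 had 28 at 1p and 6 at 1q. Chromosomes 12 and 18 had like ends, with 13.5 and 14.5 per Mb at 12p and 12q and 4.5 per Mb at each of 18p and 18q. Pooled by arm, the short-arm ends held 14.7 peaks per Mb (13.4 to 16.1) and the long-arm ends 15.7 (14.6 to 17), intervals that overlap.

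Terminal peaks were slightly narrower than those of the flanks, a difference that was lost under most other settings. Their median width was 1015 bp (quartiles 741.5 and 1447 bp), against 1079 bp in the flanks and 1146 bp over 10 Mb from either end. Medians were compared at the 34 ends with at least 5 peaks in both zones. The terminal median was the lower at 24 and the higher at 10, with a median ratio of 0.94 (exact 95% interval of the median 0.859 to 0.998), and this passed the exact two-sided sign test (p = 0.0243, adjusted p = 0.0324). Among peaks of score 100 or more the terminal median was lower at 18 of 33 ends (exact sign test, adjusted p = 0.728), and with peaks less than 1 kb apart merged it was higher at 18 of 34 (adjusted p = 0.864). Leaving out any 1 of chromosomes 7, 10, 11, 12, 18 or 20 also ended the call (exact sign test, adjusted p = 0.0668 for each).

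Per end, the terminal median width ran from 682 bp at 13q (1207 bp in its flank) to 1539 bp at 5q (1189 bp in its flank). Narrow peaks of up to 826 bp, the lower quartile of the whole list, made up 33.5% of terminal peaks and 29% of flank peaks. Broad peaks of 2500 bp or more numbered 22 among the terminal peaks (1.95%, exact 95% interval 1.22 to 2.93) and 65 in the flanks (3.08%, 2.38 to 3.91).

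Because density and width moved in opposite directions, the share of sequence under peaks was also computed. Peaks covered 1.78% of the terminal zones and 0.859% of the flanks. The covered length per Mb was larger in the terminal zone at 30 of 37 ends, with a median ratio of 2.08.

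Peak scores showed no difference between zones that passed the test over ends. The terminal median score was the higher at 18 ends and the lower at 16, with a median ratio of 1.03 (0.74 to 1.17, exact two-sided sign test p = 0.864, adjusted p = 0.864). The interval includes ratios on both sides of 1, and the failed test does not show that scores are alike. With all peaks pooled the sign was the other way: the median score was 183 in the terminal zones (quartiles 89.9 and 378), 202 in the flanks and 234 over 10 Mb from either end. The median over the 34 ends was also lower in the terminal zones, 192 against 197, although the median of the paired ratios was above 1.

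**Figure D4:**
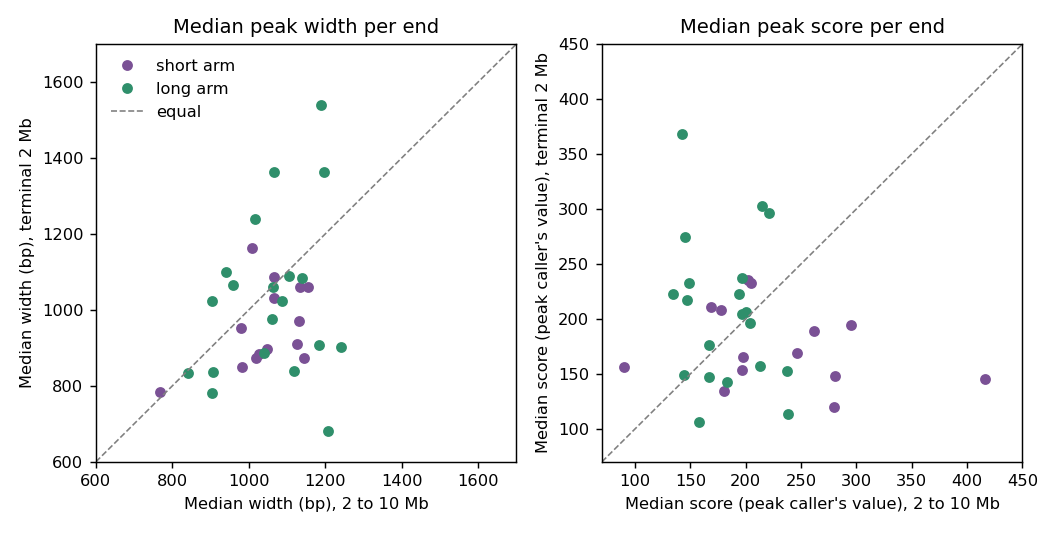
Median peak width in bp (left) and median peak score (right) at 34 chromosome ends, terminal 2 Mb on the vertical axis against 2 to 10 Mb on the horizontal axis, with the line of equality dashed. In width 24 ends lie below the line, and in score 18 lie above it and 16 below it.

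The near-balance over ends included large shifts in both directions at some ends. At 6q the median score was 368 in the terminal zone (17 peaks) and 142 in the flank, a ratio of 2.59, the highest of the 34. At 8q the ratio was 1.89. At the other extreme, 5p had a ratio of 0.35, 7p had 120 against 280 (ratio 0.43), and 10q had 113 against 238 (ratio 0.48). The ratio was above 1.5 at 5 of the 34 ends and below the inverse of 1.5 at 6, and lay between these limits at the others. No interval was computed for the score ratio of a single end. Some medians rest on few peaks, such as the 7 flank peaks of 5p. Among long arms the terminal score was the higher at 13 of 20 ends, and among short arms at 5 of 14. Whether these shares differ was not tested. Where terminal peaks were wider relative to their flank, they also tended to be stronger relative to it (Spearman rho of the width and score ratios 0.76 over 34 ends). This describes 2 measures that rise together peak by peak (rho 0.79 across terminal peaks and 0.78 across flank peaks). The score ratio showed almost no relation to the density ratio (rho -0.01).

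At like width neither zone had the higher median score throughout. Among peaks of up to 826 bp the median score was 77.1 in the terminal zones and 76.9 in the flanks. From 827 to 1116 bp it was 153 against 174, from 1117 to 1503 bp 318 against 300, and above that 470 against 501. The difference changed sign from class to class, and it was given no interval and no test.

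With peaks pooled over ends, weak peaks made up a larger share at the ends and in their flanks than further in. Scores of 109 or less, the lower quartile of the list, made up 32% of terminal peaks (29.3 to 34.8), 29.2% of flank peaks (27.2 to 31.2) and 22.9% of those over 10 Mb from an end (22.2 to 23.7). The intervals of the terminal zones and flanks overlap, and both lie above that of the inner peaks. At the upper end, 37 terminal peaks (3.27%, 2.31 to 4.48) and 63 flank peaks (2.98%, 2.3 to 3.8) scored 1000 or more, against 2.4% of the inner peaks (2.14 to 2.69). These 3 intervals overlap. All intervals of these shares take pooled peaks as independent, though peaks on the same end share a neighbourhood. No comparison end by end was made for these shares.

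Of the 100 strongest peaks of the whole list, 8 were terminal and 14 lay in the flanks, close to the shares of all wild-type peaks in these zones (6.62% and 12.4%). The 10 strongest terminal peaks lay on 6 ends. After those of 17q and 9q came one at 10p, 1093754 to 1095904, which scored 2035.28 and was 2151 bp wide. At 21q, the peak at 47742364 to 47745661 scored 1801.98, and one at 5q, 179125022 to 179126545, scored 1733.94. Besides its strongest peak, 1p had one at 875452 to 878276 (score 1489.63) and another at 1309593 to 1311123 (score 1396.37). The remaining 2 were on 17q, at 79817526 to 79819778 (score 1419.24) and 80054814 to 80057688 (score 1384.8). Their nearest neighbouring peaks were 3.08 to 39.5 kb away.

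Neighbouring peaks lay closer together at the ends. The median distance between the middles of neighbouring terminal peaks was 22.6 kb over 1095 pairs, against 42.6 kb over 2074 pairs in the flanks. End by end, the median distance was shorter in the terminal zone at 27 of 34 ends, with a median ratio of 0.52 (0.38 to 0.68), which passed the exact two-sided sign test (p = 0.000821, adjusted p = 0.00164). Density and spacing are tied to each other, so this is not a second, independent result, and pairs across the limit of a zone were not counted. On the 14 short arms alone it was shorter at 10, which did not pass the exact sign test (adjusted p = 0.239).

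**Figure D5:**
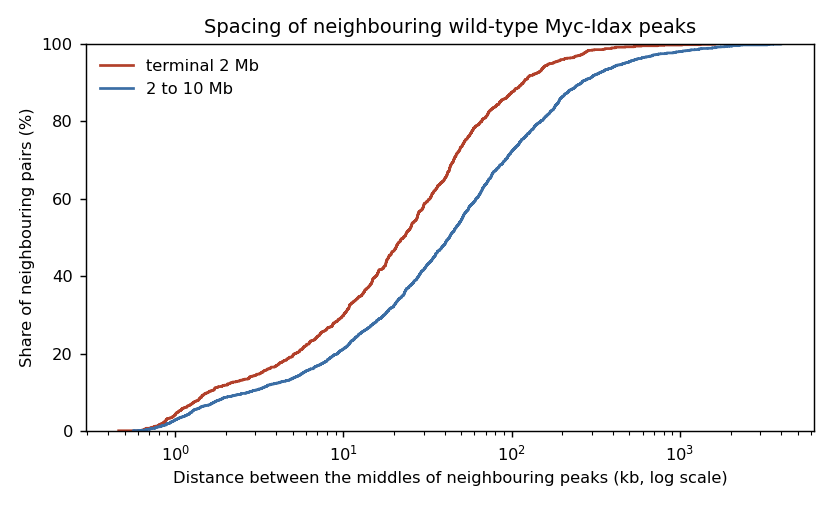
Cumulative share of neighbouring wild-type peak pairs (vertical axis, percent) by the distance between their middles (horizontal axis, kb, log scale), for 1095 terminal pairs and 2074 flank pairs. The terminal curve lies to the left, with medians of 22.6 and 42.6 kb.

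Among the counted pairs, the contrast was widest for long distances. Distances over 200 kb made up 4.02% of terminal pairs (2.93 to 5.36) and 13.6% of flank pairs (12.2 to 15.2). Distances under 10 kb made up 29.9% (27.2 to 32.7) against 21.2% (19.5 to 23). Peaks with less than 1 kb between their edges made up 12.7% of terminal pairs (139 pairs, 10.8 to 14.8) and 9.59% of flank pairs (199 pairs, 8.36 to 10.9). A pair was counted only with both peaks inside the same zone, and terminal zones are shorter than flanks. Long distances were therefore cut off more often in the terminal zones. How far this lowered their share, or the median distances above, was not tested. The intervals take pairs pooled over ends as independent. Set against the mean spacing of its own zone, the median distance was 0.47 of it in the terminal zones and 0.39 in the flanks (medians over 34 ends). It was the larger share in the terminal zone at 20 ends and the smaller at 14, and this difference was not tested.

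Terminal peaks still gathered in short stretches. The densest 100 kb of any terminal zone was at 5q, from 180586197 to 180674320, with 14 peaks of scores 56.1 to 1099. At 16p, 13 peaks lay between 671971 and 772173, at 10q 12 lay between 135121222 and 135208387, and at 1p 12 lay between 839695 and 937710. The median end had 6 peaks in its densest 100 kb, and so had the median flank, which is 4 times as long. At 1q, 7 of the 12 terminal peaks lay in 81 kb from 249119877 to 249200845, at the tip, and the other 5 lay beyond a stretch of 1624 kb without a peak. These stretches were found by scanning and carry no test.

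Of the 38 peaks of the DNA-binding mutant, 3 lay in these terminal zones (7.89%, exact 95% interval 1.66 to 21.4) and 1 in the flanks. The terminal share of the wild-type list, 6.62%, lies within that interval. The one at 10q, 134778800 to 134778998 (score 54.62), lay inside a wild-type peak at 134778061 to 134779448 with a score of 358.29. One at 11p, 1212795 to 1213075 (score 55.31), lay in the longest stretch of that terminal zone without a wild-type peak, from 926274 to 1283558, and 70483 bp from the nearest wild-type peak. The third, at 14q, 105628802 to 105629032 (score 59.46), lay 4388 bp from a wild-type peak of score 326.66. With 1 list per construct no test between constructs was possible, and the amounts of tagged protein in the lines were not compared here.

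Chromosome 19, which the selection left out, had 53 peaks per Mb in the last 2 Mb of its short arm and 25 per Mb in the flank. On its long arm the values were 24 and 25 per Mb.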

How the data were processed

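The data were 2 peak lists, wild-type Myc-Idax and Myc-IdaxDBM, each over the empty-vector line. Alignment with Bowtie 0.12.7 and peak calling with MACS 1.4.1 on hg19 are listed in the submitters' processing notes. The sources used here do not say how the 2 replicates per condition were joined. Each list has chromosome, start, end, name and score. The score was deposited by the authors without a stated scale, and its lowest value in the wild-type list was 50.01. Starts were made 1-based.

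Distances were measured from the peak middle to the hg19 chromosome ends of GenomeInfoDb 1.38.1. Density, median width, median score and median spacing in the terminal 2 Mb were set against 2 to 10 Mb from the same end by exact sign tests over ends, adjusted over 4 measures (threshold 0.05). Medians needed 5 peaks in both zones. Shares have exact Clopper-Pearson and counts exact Poisson 95% intervals, which cover counting error only. Calculations were tested on simulated lists of randomly scattered peaks. Those lists lack the clustering, the spread between ends and the link of score to width seen here. Named regions were the 10 strongest terminal peaks, the 5 densest and 5 sparsest ends, the outermost peak and the peaks beside the limit at the 5 densest, and terminal mutant peaks. Members, lists and tests were chosen with earlier results of these data known. Gene order was taken from RefSeq (GRCh38.p14), with no coordinates. Calculations were made in Python 3.11.15 (SciPy 1.17.1, pandas 2.3.3, numpy 2.4.6), figures with matplotlib 3.10.9. Alternatives were other zone depths and flanks, a minimum score, merging of close peaks, another start of the zone, single arms and chromosomes left out.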

Additional observations from a re-analysis of the deposited data

How the results depend on the processing

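Values are median ratios of the terminal zone to its flank over ends. No paired analysis was possible because 1 list stood for each construct, so that samples could not be matched by replicate, and none could be left out (the pairs above are zones of 1 end). Density stayed higher in all 9 alternatives and with each of 21 chromosomes left out (ratios 1.87 to 1.89), and its call was lost on the short arms alone (1.71, fewer ends). Spacing stayed shorter in its 10 alternatives (chromosomes left out 0.50 to 0.55), with the call lost on the short arms alone (0.52). The width call held in 1 of 10 alternatives, with 1 value per chromosome, and with 15 of 21 chromosomes left out in turn (ratios 0.93 to 0.95). It was lost with a terminal zone of 1 Mb (0.94) or 3 Mb (0.97), a flank of 2 to 4 Mb (0.94), a score of at least 100 (0.99), distance from the outermost peak (0.94), short arms (0.89), long arms (0.97) and at least 10 peaks in both zones (0.94), and it turned round after merging of peaks within 1 kb (1.01). The score difference, which passed in no setting, turned round with a zone of 1 Mb (0.95) or 3 Mb (0.99), a score of at least 100 (0.95), merging (0.93), distance from the outermost peak (0.99), short arms (0.76), 1 value per chromosome (0.95) and at least 10 peaks (0.96). Single arms and smaller zones also leave fewer ends or peaks; otherwise the cause was not tested. The 2 settings of 1 value per chromosome and at least 10 peaks were chosen after seeing the data. Read depth, unassembled sequence and the number of copies of each chromosome end in HEK293T were not taken into account.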
